A study of Mus musculus with 16 samples.

Results

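Of the 51582 H3K27ac peaks that untreated mouse macrophages had on chromosomes 1 to 19 and X, 1732 (3.36%) shared at least 1 bp with an H3K27me3 peak of the same cells, and these 1732 regions, called shared peaks here, are the subject. They were selected on the measured peak calls of both marks, so the calls and folds of the marks are given as a description. The shared peaks touched 1665 of the 88037 H3K27me3 peaks (1.89%). Most were no mere contact of edges, since in 977 of them (56.4%) the shorter peak lay wholly inside the other.

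The cells were primary macrophages grown for 5 days from bone marrow of adult C57BL/6 mice in medium conditioned with M-CSF, the growth factor of the macrophage lineage. Chromatin immunoprecipitation with sequencing (ChIP-seq) gave 9 peak lists, and 7 input libraries completed the 16 samples. H3K27ac, H3K27me3 and p53 were mapped in untreated wild-type cells, and EZH2 in untreated wild-type cells and in wild-type cells given the ionophore nigericin after priming with LPS. SIRT1, a deacetylase, was mapped in untreated cells labelled Ezh2 wild type, Ezh2 knock out, p53 wild type and p53 knock out. Each group held 1 library, the labels say neither which promoter or Cre made the knock outs nor the sex of the mice, and every interval is a Wilson 95% interval that covers counting error only. The peak lists hold no read totals. The cells carried the marks of macrophages: all 11 macrophage marker genes examined, among them Spi1 (H3K27ac fold 10.8), Csf1r (7.87), Cd68 (6.13) and Cebpa (5.56), had an H3K27ac peak within 1 kb of a gene start or end and none had H3K27me3 there. Markers of other cell types had H3K27ac at 1 of 23 lymphocyte, 3 of 20 neutrophil and granulocyte, 5 of 19 stromal and endothelial and 1 of 16 erythroid and megakaryocyte genes, and none of these genes had a shared peak.

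Lysine 27 of histone H3 is acetylated by CBP and p300 at active promoters and enhancers, and trimethylated by EZH2, the catalytic subunit of Polycomb repressive complex 2, at silenced genes. A given lysine cannot carry both groups at the same time. ChIP-seq adds up the nucleosome tails, alleles and cells of a culture, so a region can hold peaks of both marks without any lysine holding both. These sources cannot be told apart in the peak lists.

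Promoter sequence under both marks was read for 50 promoters of 45 genes, taken from RefSeq (GRCm38.p6) as 250 bases before to 50 after a gene start and sharing at least 1 base with both peaks. The promoters of Tmem178, Meis3 and Padi1 lay under both marks over all 300 bases and are printed to show how far they differ in CpG, the dinucleotide that Polycomb-bound promoters are often rich in. Capitals mark each CpG: the promoter of Tmem178, a membrane protein gene, held 37 (chr17:80944382-80944681, plus strand), that of the homeobox gene Meis3 held 21 (chr7:16175145-16175444, plus strand) and that of Padi1, a peptidylarginine deiminase gene, held 3 (chr4:140845729-140846028, minus strand).
Tmem178: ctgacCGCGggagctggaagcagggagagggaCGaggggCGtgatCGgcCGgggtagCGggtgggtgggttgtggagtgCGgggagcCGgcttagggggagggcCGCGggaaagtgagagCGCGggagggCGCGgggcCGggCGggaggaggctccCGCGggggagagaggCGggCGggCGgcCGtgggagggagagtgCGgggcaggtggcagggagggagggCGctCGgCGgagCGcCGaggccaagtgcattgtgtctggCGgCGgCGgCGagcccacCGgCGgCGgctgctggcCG
Meis3: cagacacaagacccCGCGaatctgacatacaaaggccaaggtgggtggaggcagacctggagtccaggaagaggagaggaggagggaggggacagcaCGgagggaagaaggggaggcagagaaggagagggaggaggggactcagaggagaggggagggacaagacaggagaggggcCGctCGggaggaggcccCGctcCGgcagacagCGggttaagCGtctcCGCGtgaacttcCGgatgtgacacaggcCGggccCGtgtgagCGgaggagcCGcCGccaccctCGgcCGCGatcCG
Padi1: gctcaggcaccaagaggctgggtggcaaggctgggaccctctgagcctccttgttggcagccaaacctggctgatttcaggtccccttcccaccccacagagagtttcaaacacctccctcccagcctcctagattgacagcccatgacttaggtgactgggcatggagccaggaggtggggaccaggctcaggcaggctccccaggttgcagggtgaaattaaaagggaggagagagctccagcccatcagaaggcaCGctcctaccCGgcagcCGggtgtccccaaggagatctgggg

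In the next 3 promoters the borders of the shared bases fell inside the sequence, and capitals mark the bases under both peaks. They belong to Tekt3 (chr11:63061409-63061708, plus strand, 261 shared bases), a tektin gene of cilia and flagella, Rab15 (chr12:76818325-76818624, minus strand, 222 shared bases), a small GTPase gene of endosomes, and Ppm1n (chr7:19280000-19280299, minus strand, 192 shared bases), a protein phosphatase gene whose shared peak also held an EZH2 peak (2.52-fold).
Tekt3: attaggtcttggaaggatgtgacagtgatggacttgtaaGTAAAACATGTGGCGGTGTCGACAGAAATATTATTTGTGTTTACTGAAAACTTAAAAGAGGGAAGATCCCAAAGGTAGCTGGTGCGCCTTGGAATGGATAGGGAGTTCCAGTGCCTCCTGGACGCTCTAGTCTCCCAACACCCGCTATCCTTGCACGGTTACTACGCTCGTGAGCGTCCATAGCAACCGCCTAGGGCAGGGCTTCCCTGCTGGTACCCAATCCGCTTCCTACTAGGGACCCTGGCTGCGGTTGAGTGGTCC
Rab15: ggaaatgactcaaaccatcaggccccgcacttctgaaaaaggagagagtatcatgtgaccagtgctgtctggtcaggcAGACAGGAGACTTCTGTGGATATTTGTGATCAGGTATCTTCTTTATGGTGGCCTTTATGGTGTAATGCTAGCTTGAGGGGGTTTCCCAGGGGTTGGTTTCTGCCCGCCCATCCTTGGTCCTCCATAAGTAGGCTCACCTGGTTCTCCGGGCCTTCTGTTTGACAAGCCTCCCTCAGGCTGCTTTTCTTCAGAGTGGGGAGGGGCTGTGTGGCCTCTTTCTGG
Ppm1n: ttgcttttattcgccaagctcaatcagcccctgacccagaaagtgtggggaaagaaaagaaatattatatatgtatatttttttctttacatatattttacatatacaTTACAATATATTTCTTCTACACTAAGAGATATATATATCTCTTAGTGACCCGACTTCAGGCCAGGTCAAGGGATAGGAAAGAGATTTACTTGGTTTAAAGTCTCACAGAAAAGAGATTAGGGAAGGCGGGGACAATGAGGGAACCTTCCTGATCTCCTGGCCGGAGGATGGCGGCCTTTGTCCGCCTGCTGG

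The shared promoters were on the whole poor in CpG. Their median was 5 CpG per 300 bases, against 13 in 3578 promoters with H3K27ac alone, 10 in 4965 with H3K27me3 alone and 6 in 24025 with neither mark. The median G+C content was 52.7% in the shared promoters, 57.0% with H3K27ac alone and 56.7% with H3K27me3 alone. GGGCGG, the core of Sp and KLF sites, stood on either strand in 11 of the 50 shared promoters (22.0%, 12.8 to 35.2%), in 44.9% of those with H3K27ac alone, in 41.5% of those with H3K27me3 alone and in 35.9% of all 32619. TGANTCA, the letters of an AP-1 site, was found in 5 of 50 (10%) and in 7.85% of all, and GAGGAAGT, the letters of a PU.1 site, in 1 of 50 and in 3.22% of all. By number of CpG, the Tmem178, Meis3 and Tekt3 (12) promoters stand above the upper quartile of the shared promoters (11.5), Ppm1n (6) stands near the median, and Padi1 and Rab15 (3 each) at the lower quartile.

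The overlap took several forms. Full overlap, in which the shorter peak of some pair lay wholly within the other, made up 56.4% (54.1 to 58.7%), and it was of 2 kinds: 597 H3K27ac peaks lay inside an H3K27me3 peak and 380 held a whole H3K27me3 peak. Partial overlap accounted for 687 (39.7%). Edge contact, in which less than 20% of the shorter peak was shared in every pair, was seen in 68 (3.93%, 3.11 to 4.95%). Only 27 of the 1732 (1.56%) remained edge contacts with a limit of 10%, and 224 (12.9%) were with a limit of 50%. Edge contacts shared a median of 56 bp (1 to 143), against 534 bp in full and 394 bp in partial overlaps.

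**Figure D1:**
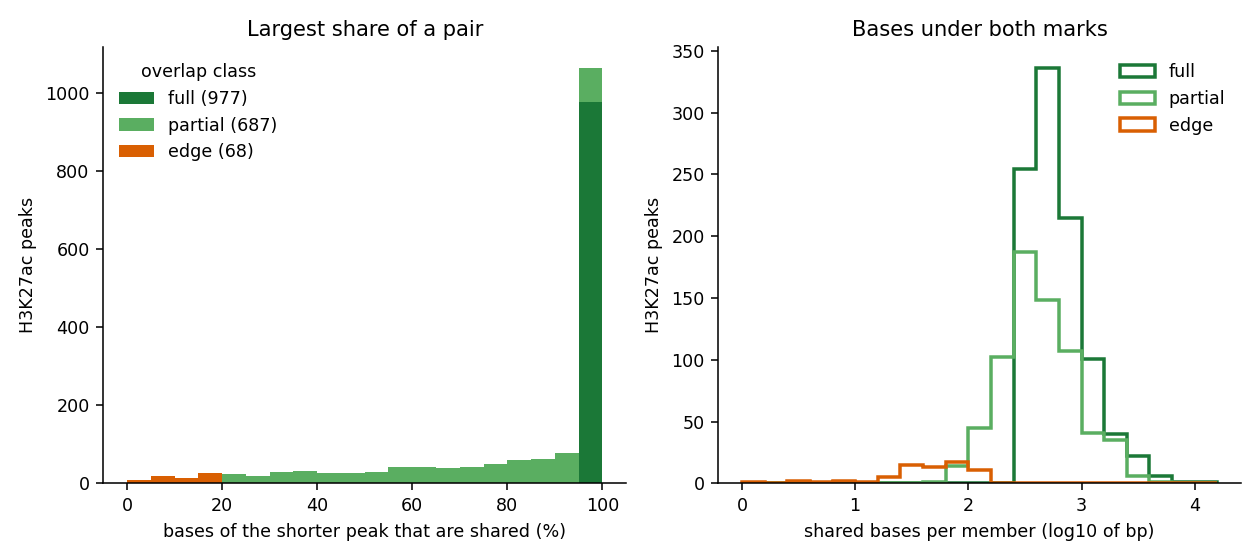
Left, H3K27ac peaks by the largest share of the shorter peak that lay under both marks (x axis, %), stacked by overlap class; right, H3K27ac peaks by the number of shared bases (x axis, log10 of bp) for each class. The 977 full overlaps stand at 100%, and the 68 edge contacts lie below 20% and share at most 143 bp.

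Summits, the points of highest enrichment, gave a stricter view of the same peaks. The H3K27ac summit lay in an H3K27me3 peak in 1159 shared peaks (66.9%), an H3K27me3 summit lay in the H3K27ac peak in 949 (54.8%), and both held in 592 (34.2%, 32.0 to 36.4%). In 216 (12.5%) neither summit was shared. No edge contact had both summits shared, which by the limit of 3 counts allows a share of up to 4.41% of the 68 and by the Wilson interval up to 5.35%. The median distance between summits was 461 bp. Most shared peaks met 1 H3K27me3 peak (1600), 132 met more, and the largest number was 5. Of the 380 H3K27ac peaks that held a whole H3K27me3 peak, 122 (32.1%) had H3K27me3 within 5 kb on both sides, 177 (46.6%) on 1 side and 81 (21.3%) on neither; in the other classes the overlap itself puts it on at least 1 side.

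The values next to the limit of the rule show how little separates the outermost shared peaks from their neighbours. The smallest overlap, 1 bp, was that of an H3K27ac peak at chr5:118505199-118505542 (fold 2.99) with an H3K27me3 peak of 3.21-fold, followed by overlaps of 3 bp on chromosomes 13 and 1. Just outside, H3K27ac peaks on chromosomes 2 (3.57) and 17 (2.72) touched an H3K27me3 peak without a shared base, and a further one on chromosome 2 (3.10) lay 3 bp away. In all, 72 shared peaks shared 100 bp or less, and 65 other H3K27ac peaks lay within 100 bp of H3K27me3.

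The shared peaks were close to the rest in fold and lower in H3K27ac fragments. Fold here is the fragments at the summit over the local background, each with 1 added, as the peak caller gave it. The median H3K27ac fold was 3.53 in the shared peaks and 3.32 in the 49850 other H3K27ac peaks, but the median number of fragments at the summit was lower, 15 against 21, and so was the median length, 715 against 791 bp. The share of H3K27ac peaks that met H3K27me3 was 2.18% at folds of 2 to 3, 4.25% at 4 to 5, 3.06% at 6 to 8 and 1.13% (3 of 266, 0.384 to 3.26%) above 8. The 1665 H3K27me3 peaks involved had a median fold of 3.46 and a median length of 860 bp, against 3.51 and 724 bp in the others. On the autosomes alone the order of the median folds was reversed, 3.49 against 3.46. Over all chromosomes the median number of fragments at the summit was higher in the 1665 peaks, 17 against 14. With a −log10 q of at least 5 demanded of both marks, 255 of 23418 H3K27ac peaks (1.09%, 0.964 to 1.23%) were shared.

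The 2 kinds of full overlap differed in length and strength. H3K27ac peaks inside H3K27me3 were short and modest (median 513 bp, fold 3.32, 13 fragments) and lay in stronger H3K27me3 (4.66). H3K27ac peaks that held an H3K27me3 peak were long and strong (1777 bp, fold 4.14, 19 fragments), and the H3K27me3 inside them was weaker (3.21). Containment itself orders the lengths, so this contrast is a description of the classes.

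**Figure D2:**
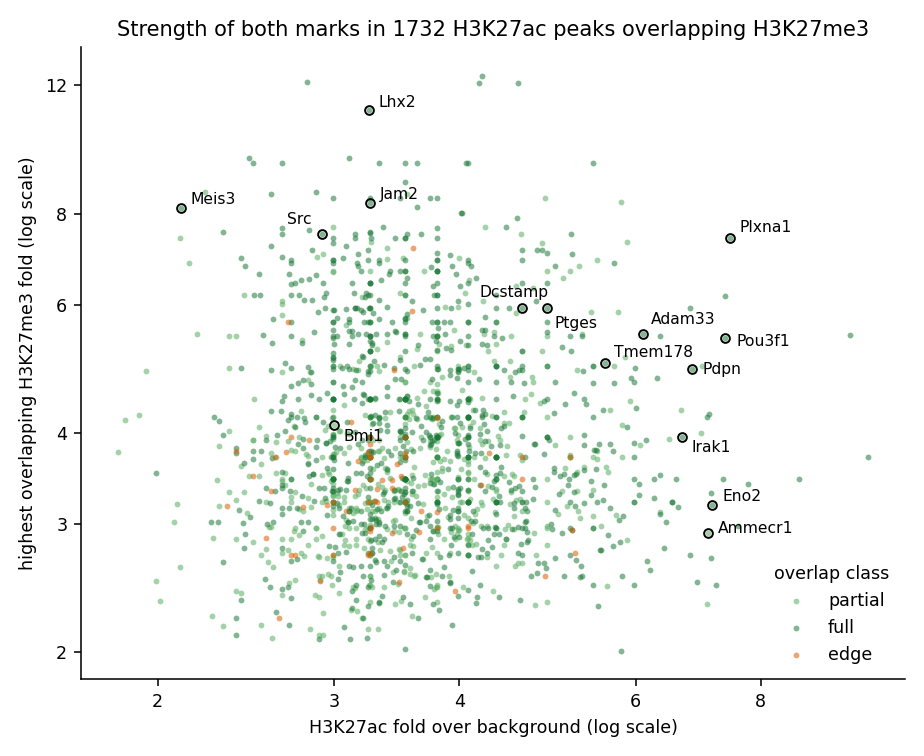
Each point is an H3K27ac peak overlapping H3K27me3, placed by its H3K27ac fold (x axis, log scale) and the highest fold of the H3K27me3 peaks it overlaps (y axis, log scale), and coloured by overlap class; circles mark named genes. Lhx2 (3.25 and 11.1) and Meis3 (2.11 and 8.15) stand high in H3K27me3, Eno2 (7.16 and 3.18) and Ammecr1 (7.09 and 2.92) high in H3K27ac, and Plxna1 (7.45 and 7.41) in both.

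Full overlaps at genes were ranked by their lower fold, the smaller of the 2 folds of a region. At a gene means that the H3K27ac peak reached within 1 kb of a gene start, or of either end if strand was not given. Full overlaps farther inside genes were left out. Some of these had higher lower folds than most of those ranked, such as 6.16 in Chchd6 and 5.93 in Dcstamp. Among the ranked ones, the 8 highest were near Plxna1, Adam33, Pou3f1, Tmem178, Pdpn, Ptges, Zfp469 and Dcstamp. The first, beside Plxna1, which encodes the semaphorin receptor plexin A1, was an H3K27ac peak of 34628 bp (chr6:89362870-89397497, fold 7.45, 70 fragments) that held 4 H3K27me3 peaks of up to 7.41-fold and 17751 shared bp, the most of any shared peak. Adam33, a metalloprotease gene, had 6.10 for H3K27ac and 5.48 for H3K27me3, with both summits shared. A 9438-bp H3K27ac peak ending less than 1 kb from Pou3f1, a POU transcription factor gene, had 7.36 and 5.39 with 6936 shared bp. Tmem178 followed with 5.59 and 4.98 over 4410 shared bp, and Zfp469, a zinc finger gene, with 4.99 and 4.69 over 3779.

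In the other 3 the H3K27ac summit lay within 1 kb of a gene start, or of either gene end where the strand was not given. The start of Pdpn, the gene of the membrane glycoprotein podoplanin, lay in an H3K27ac peak of 6.84-fold that held a whole 2616-bp H3K27me3 peak (4.90). At Ptges, which encodes the inducible prostaglandin E synthase, a 1134-bp H3K27ac peak (4.89) lay inside 3594 bp of H3K27me3 (5.93). Dcstamp (chr15:39745930-39760938) is needed for the fusion of osteoclasts and macrophage giant cells. Over its last base by coordinate, a 1516-bp H3K27ac peak (4.62) lay inside a 7154-bp H3K27me3 peak (5.93). The summits were 59 bp apart, and whether this end is the gene start was not established. A stronger H3K27ac peak (6.79) lay in the same H3K27me3 peak within the gene.

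The 5 shared peaks that the rule for named genes took for their H3K27me3 all had H3K27ac below the median of the shared peaks (3.53). At Lhx2, a LIM homeobox gene, a 408-bp H3K27ac peak (3.25) lay in an H3K27me3 domain of 38196 bp (11.1-fold, 63 fragments). Jam2, a junctional adhesion gene, had 3.26 and 8.27, Meis3 2.11 and 8.15, and Atp2c2, a calcium and manganese pump gene, 2.33 and 7.54. At Src, the tyrosine kinase gene, an H3K27ac peak of 2.91 and 4273 bp lay inside an 8510-bp H3K27me3 peak of 7.51-fold. The same H3K27me3 peak also held a stronger H3K27ac peak (5.18). Among all shared peaks, 4 had higher H3K27me3 than Lhx2, up to 12.4-fold over H3K27ac of 4.21 (chr6:88204618-88205181), the Iglon5 peaks among them, and 3 of these 4 had H3K27ac above that median. H3K27ac was the higher at the glycolytic gene Eno2 (7.16 and 3.18) and at Ammecr1 on X (7.09 and 2.92). By the 1-kb limit given above for lying at a gene, 2 edge contacts counted for genes with a formal symbol. They lay at Apbb2 (2.83 and 3.91, 33 shared bp) and at Ogt, the O-GlcNAc transferase gene (2.49 and 3.49, 10 shared bp). Of all 68 edge contacts, 37 (54.4%) had their H3K27ac summit inside a gene body.

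Shared peaks lay mostly away from gene starts. Their H3K27ac summit was within 1 kb of a gene start in 149 (8.60%, 7.37 to 10.02%), where all H3K27ac peaks had 12.6%, all H3K27me3 peaks 6.84% and the other H3K27ac peaks 12.8%. A further 889 (51.3%) lay in a gene body beyond 1 kb, against 57.2% of the other H3K27ac peaks, and 694 (40.1%) in neither, against 30.0%. With a window of 5 kb the share near a start was 28.5% in the shared peaks and 30.2% in the others, within counting error of each other. Genes outside the promoter table enter with both gene ends, and with the table's starts alone the shares were 5.95 and 10.1%. Of the 49850 other H3K27ac peaks, 298 lay within 500 bp of H3K27me3 and 3198 within 5 kb.

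Shared peaks came in runs along the genome. They fell in 410 of the 1753 megabases that had any H3K27ac peak, and 100 megabases with at least 5 of them held 1156 (66.7%). The fullest was at 95 Mb of chromosome 16, where 48 of 74 H3K27ac peaks were shared, over the lncRNA genes 1600002D24Rik (15 of 27) and Gm32130 (11 of 12). Next came 120 Mb of chromosome 9 (43 of 90), 89 Mb of chromosome 6 with Plxna1 and Chchd6 (40 of 76), and 34 Mb of chromosome 8 (37 of 118). These runs, and the genes described by their number of shared peaks, were picked after their values were seen.

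Counted by gene, 473 genes held a shared summit, 38 held at least 5 and 15 at least 10. Zfp469 held the most, 32 of its 45 H3K27ac peaks, with H3K27ac folds of 2.49 to 5.98 (median 3.65) and H3K27me3 folds of 3.04 to 9.39 (median 6.32). Sh3kbp1, an endocytic adaptor gene on X, had 31 of 55 and Creb5, of the CREB family of transcription factors, 28 of 92. Prkar1b (regulatory subunit of protein kinase A) had 17 of 24, Htra1 (secreted serine protease) 13 of 16, Ltbp2 (latent TGF-beta binding protein) 12 of 21 and Src 11 of 15. With both marks at a −log10 q of at least 5, the counts were 9 in Zfp469, 6 in Src, 4 in Htra1 and 3 each in Creb5 and Sh3kbp1.

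In 5 of the 2117 genes with at least 5 H3K27ac summits every H3K27ac peak was shared: Grap2 (10 of 10), Tekt3 (8 of 8), Fam83f and Slc6a12 (6 of 6 each) and Dlg3 (5 of 5). Grap2, an adaptor gene of immune receptor signalling, and the adjacent Fam83f stood in one stretch of chromosome 15 where all 18 H3K27ac peaks within 90 kb were shared and 29 H3K27me3 peaks were called. In Grap2 the H3K27ac folds were 2.19 to 5.44 and the H3K27me3 folds 3.05 to 7.66. H3K27me3 was more even in Tekt3, at 6.42 to 7.66 over its 8 shared peaks, with H3K27ac at 2.44 to 4.99. On the same chromosome, Dcstamp had 7 of 8 shared and the adjacent Dpys, a pyrimidine catabolism gene, 10 of 18. With both marks at a −log10 q of at least 5, Grap2 had 3 shared peaks and Dcstamp 2.

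**Figure D3:**
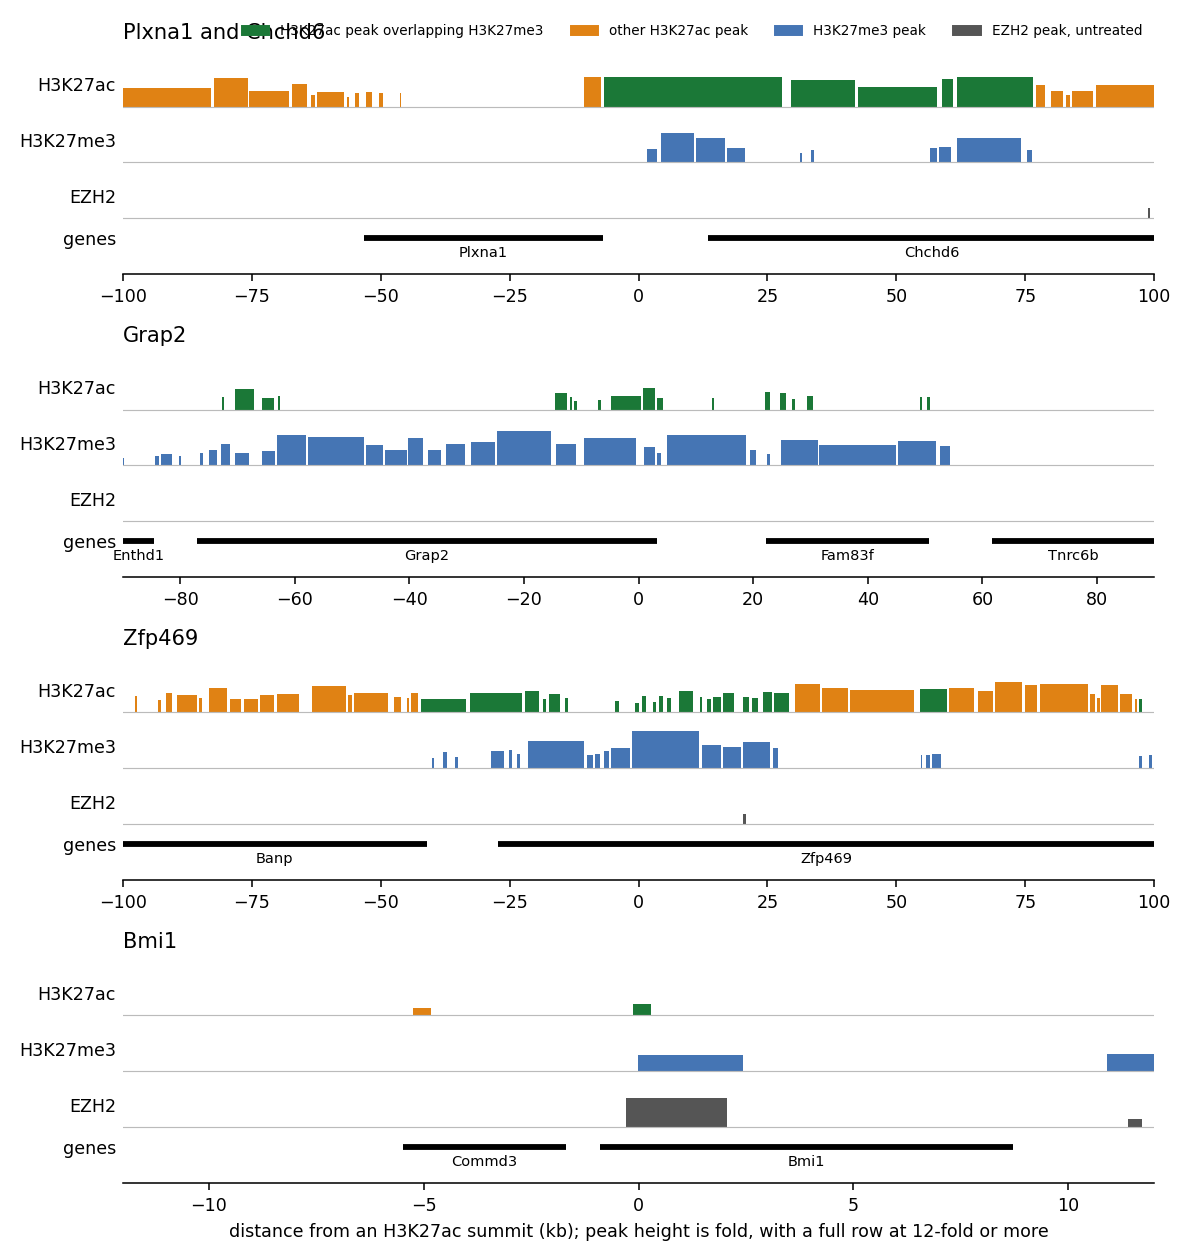
Peaks of H3K27ac, H3K27me3 and untreated EZH2 around 4 shared peaks, by distance from the H3K27ac summit (x axis, kb); box height is fold, a full row being 12-fold or more, and black bars are genes. Beside Plxna1 the longest H3K27ac peak holds 4 H3K27me3 peaks, H3K27ac peaks sit in near-continuous H3K27me3 at Grap2 (18 of 18 shared), the Zfp469 window has H3K27me3 over part of its length (23 of 52 shared), and at Bmi1 the H3K27ac peak straddles the border of H3K27me3 under EZH2.

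Chromosome X stood apart from the autosomes. Of its 746 H3K27ac peaks 196 (26.3%, 23.2 to 29.5%) were shared, against 1536 of 50836 (3.02%, 2.88 to 3.17%) on the autosomes. X held 1.45% of all H3K27ac peaks, 26.7% of all H3K27me3 peaks and 11.3% of the shared peaks. Among autosomes the share ran from 1.66% on chromosome 10 to 6.18% on chromosome 8. Counted over H3K27me3 peaks the order was reversed, with 0.856% of those on X meeting H3K27ac against 2.27% on the autosomes. H3K27me3 covered 29.0 Mb of X, in 23495 peaks, and 95.4 Mb of the autosomes. The Xist start had an H3K27ac peak of 3.67-fold and no shared peak. With a −log10 q of at least 5 in both marks, 19 of 291 H3K27ac peaks on X (6.53%, 4.22 to 9.97%) were shared.

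**Figure D4:**
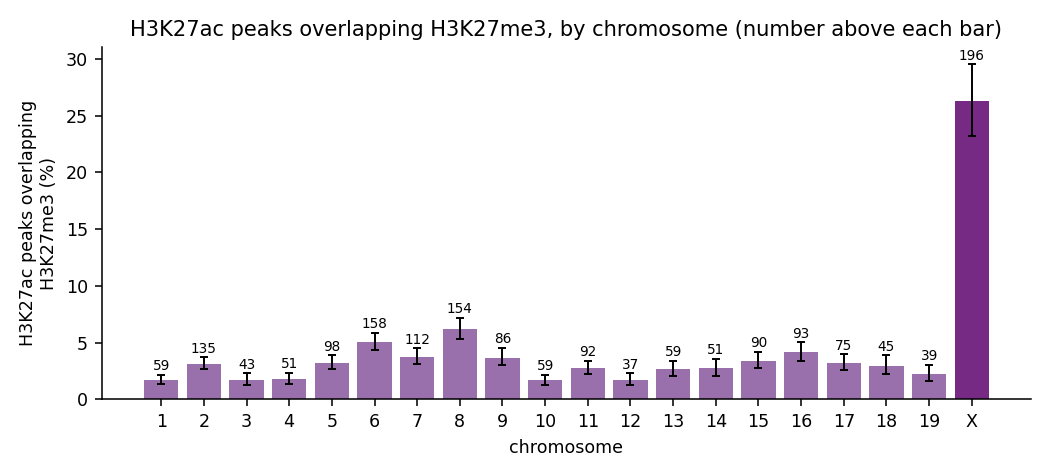
Share of the H3K27ac peaks of each chromosome that overlapped H3K27me3 (y axis, %), with Wilson 95% intervals as error bars and the number of shared peaks above each bar. X stands at 26.3% and the autosomes between 1.66 and 6.18%.

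On X the shared peaks had a median H3K27ac fold of 3.57 and a median H3K27me3 fold of 3.37, against 3.53 and 3.71 on the autosomes. Of the 196 on X, 149 (76.0%, 69.6 to 81.5%) lay in gene bodies. The share was 65.6% (61.6 to 69.5%) for the other H3K27ac peaks on X and 55.9% for the shared peaks on autosomes. A single gene, Sh3kbp1, held 31 of the shared peaks on X, so these counts are not independent and the difference on X is not established. Those at gene starts included Irak1, the kinase of Toll-like and interleukin-1 receptors, with 6.67 for H3K27ac and 3.95 for H3K27me3. Rlim, a ubiquitin ligase gene that acts in X inactivation, had 3.83 and 3.66, the forkhead gene Foxo4 3.60 and 4.24, Iqsec2, an exchange factor for ARF GTPases, 5.09 and 3.51, and Ptchd1 3.44 and 4.92. Il2rg, the common gamma chain of cytokine receptors, had 4.45 and 2.86, and Tsc22d3, the glucocorticoid-induced leucine zipper gene, 5.55 and 2.76. Among the genes of X with H3K27ac at the start, 40 of 149 (26.8%) also had H3K27me3 there, against 342 of 7283 (4.70%) on the autosomes.

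EZH2, which writes H3K27me3, was mapped in another library and played no part in the choice of the regions. Untreated EZH2 peaks overlapped 32 shared peaks (1.85%, 1.31 to 2.60%), where all H3K27ac peaks had 0.405% and all H3K27me3 peaks 2.9%. The other H3K27ac peaks stood at 0.355% (0.307 to 0.411%), so the shared peaks exceeded them by more than counting error, and the other H3K27me3 peaks stood at 2.90% (2.79 to 3.02%). On the autosomes, where all 32 lay, the share was 2.08% in the shared peaks, and 2.94% of the H3K27me3 peaks under H3K27ac met EZH2 against 3.93% of those without it. Limited to EZH2 peaks with q of at most 0.05, 8 shared peaks (0.462%) and 2 of the 49850 others met EZH2, with 0.0194% over all H3K27ac peaks. In 500-bp windows on the H3K27ac summits the shares were 1.28% and 0.204%.

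Of these 32 regions, 24 were full overlaps, 7 partial and 1 an edge contact, and 13 lay at a gene start. They were longer than the shared peaks without EZH2 (median 1021.5 against 710.5 bp) and had stronger H3K27me3 (median highest fold 5.08 against 3.71), with H3K27ac at 3.83 against 3.53.

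Bmi1, itself a component of Polycomb repressive complex 1, had the highest EZH2 fold, 7.31, over a 414-bp H3K27ac peak of 3.0-fold and an H3K27me3 peak of 4.10-fold that shared 296 bp. Shc2, an adaptor gene, had EZH2 at 3.53 over 2 shared peaks (H3K27ac 3.17 and 5.19, H3K27me3 7.04). Tmem178 had EZH2 at 3.22 and Clcf1, a cytokine gene of the interleukin-6 family, at 2.63 (5.76 for H3K27ac and 5.87 for H3K27me3, 984 shared bp). The EZH2 peak under the Pou3f1 region reached 2.53. Iglon5, a cell adhesion gene outside the rule for named genes and picked after its values were seen, had 2 shared peaks with EZH2 at 3.17 and 2.55 in H3K27me3 of 12.1-fold.

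After LPS and nigericin, EZH2 peaks met 10 shared peaks (0.577%, 0.314 to 1.06%), where all H3K27ac peaks had 0.405%, all H3K27me3 peaks 1.82% and the other H3K27ac peaks 0.399%, the last a difference within counting error. Of the 32 regions with untreated EZH2, 4 also met EZH2 after nigericin, Bmi1 (6.18) and both Shc2 peaks (2.02 and 2.29) among them. The nigericin list was shorter, 5054 against 9581 peaks (52.8%), and the count in the shared peaks was 31.3% of the untreated one. The number in other H3K27ac peaks was 199 against 177. With 1 library per condition these differences have no replicate check.

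At the level of genes, EZH2 was found at the start of 26 of the 204 genes with a shared peak there (12.7%, 8.85 to 18.0%). The share was 5.94% over all 34328 genes, 0.440% for genes with H3K27ac and no H3K27me3, and 25.1% for genes with H3K27me3 and no H3K27ac.

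Peaks of SIRT1, a deacetylase of histones and other proteins, met a smaller share of the shared peaks than of the other H3K27ac peaks in all 4 lists, with intervals that did not overlap. In Ezh2 wild-type cells 179 (10.3%, 8.99 to 11.9%) met SIRT1, where all H3K27ac peaks had 12.6%, the other H3K27ac peaks 12.6% (12.4 to 12.9%) and all H3K27me3 peaks 6.36%. In p53 wild-type cells there were 139 (8.03%, with 11.8% over all H3K27ac peaks), in p53 knock out cells 137 (7.91%, with 13.3%) and in Ezh2 knock out cells 59 (3.41%, with 5.09%). The shares over all H3K27me3 peaks were 5.11, 4.77 and 1.83% in the same order. SIRT1 followed the form of the overlap: in Ezh2 wild-type cells it met 76 of the 380 long H3K27ac peaks that held H3K27me3 (20%) and 38 of the 597 short ones inside H3K27me3 (6.37%). Without chromosome X the share in Ezh2 wild-type cells was 11.3% (9.78 to 12.9%) in the shared peaks and 12.8% (12.5 to 13.1%) in the others, so there the intervals overlapped, while in the other 3 lists they did not. With a −log10 q of at least 5 in both histone marks it was 15.3% (11.4 to 20.2%) against 18.4%. Length moved with this count, and in 500-bp windows the shares were 6.31% in the shared peaks (5.19 to 7.66%) and 7.16% in the others, also within counting error. At a q of at most 0.05, 0 shared peaks met SIRT1 in Ezh2 wild-type cells, and 0.062% of all H3K27ac peaks did. In p53 wild-type cells 0 did at this limit, against 0.0542% of the other H3K27ac peaks. The Ezh2 knock out list met 4 (0.231%), against 0.227%, and the p53 knock out list 3 (0.173%), against 0.124%. In these 2 lists the shared peaks were thus not below the others, and the differences were within counting error.

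**Figure D5:**
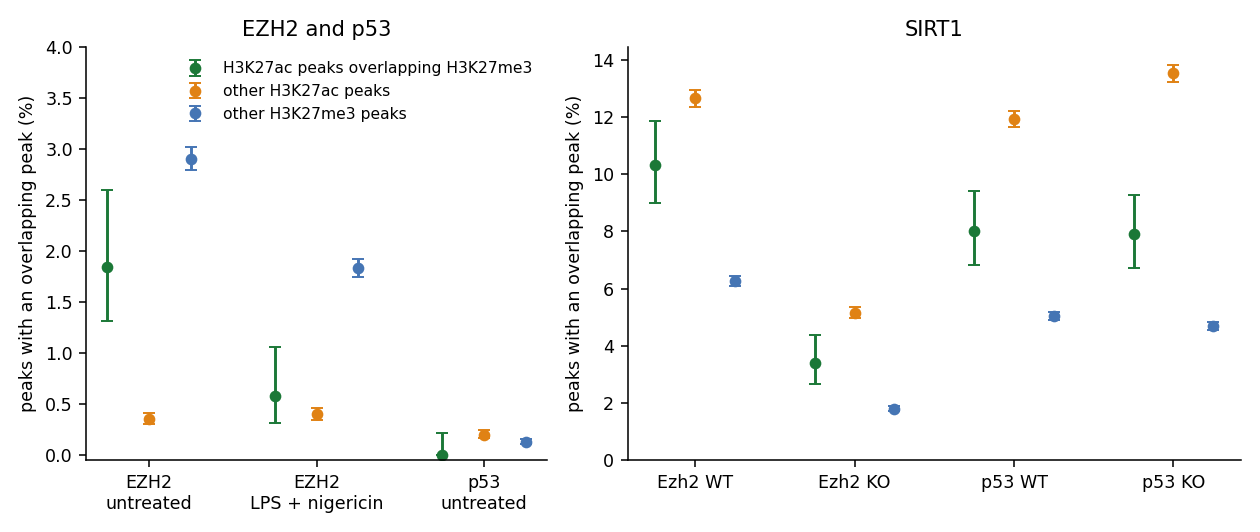
Share of regions overlapping a peak of EZH2 or p53 (left) and of SIRT1 in 4 genotypes (right) (y axes, %), for the shared peaks, the other H3K27ac peaks and the other H3K27me3 peaks; bars are Wilson 95% intervals for counting error. The shared peaks lie between the other sets for untreated EZH2 (1.85%) and for SIRT1 in each genotype, and p53 met none of them.

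Counts of shared peaks with SIRT1 are set beside the length of the lists. The Ezh2 knock out list held 18087 peaks against 74346 (24.3%), and its count in the shared peaks was 33.0% of the wild-type one and in other H3K27ac peaks 40.7%. Only 15 shared peaks met SIRT1 in both genotypes. Between p53 wild type and knock out the count went from 139 to 137 (98.6%), with 29 in both, while the list went from 56129 to 59703 peaks (106%). In all, 1326 shared peaks (76.6%) met SIRT1 in none of the 4 lists and 2 in all of them, against 68.2% and 0.409% of the other H3K27ac peaks. p53 peaks met 0 of the 1732, which by the limit of 3 counts allows a share of up to 0.173% and by the Wilson interval up to 0.221%. They met 0.196% of all H3K27ac peaks, 0.203% of those that were not shared and 0.133% of all H3K27me3 peaks, so a difference was not clearly detectable at this count.

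Shared peaks at gene starts were counted over 14 lists of genes. Over all 34328 protein-coding and lncRNA genes, 204 (0.594%) did, 21.6% had H3K27ac, 22.1% H3K27me3 and 1.11% both. Of 35 developmental regulators under Polycomb control, all had H3K27me3 and 31 had EZH2, and Lhx2 alone had H3K27ac and a shared peak. The 28 macrophage identity genes were the opposite: 26 had H3K27ac, none had H3K27me3 within the window of the start, and 1, Siglec1, the sialic acid receptor of tissue macrophages, had a shared peak (3.36 and 3.69) that reached the window and whose H3K27me3 part lay outside it. None of the 17 inflammasome and pyroptosis genes and none of the 18 type I interferon response genes had H3K27me3 or a shared peak, although 15 and 18 had H3K27ac.

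Among 28 genes of the LPS and NF-kB response, 22 had H3K27ac and 2 had H3K27me3. Cd40, a costimulatory receptor gene, had a shared peak (3.17 and 3.29, 173 shared bp). The highest H3K27me3 fold within the window of the Cd40 start was 6.95, in a peak other than the one shared. In the WNT pathway 39 of 48 genes had H3K27me3 and 5 H3K27ac, and Fzd1, a WNT receptor gene, had a shared peak of 722 bp wholly inside H3K27me3 (3.38 and 4.02). Of 33 TGF-beta and BMP genes 15 had H3K27me3 and 13 H3K27ac, and the ligand gene Bmp2 had a shared peak (3.17 and 2.28). Bmi1 was the only one of 23 Polycomb and H3K27 enzyme genes, and Airn, the antisense transcript in Igf2r (2.49 and 2.83), the only one of 43 imprinted genes. At Airn, too, the H3K27me3 part of the shared peak lay outside the window of the start. Rlim was the only one of 13 genes of X inactivation and escape. In all, 8 of the 14 lists had 1 gene with a shared peak and 6 had none. A single gene makes 2.08 to 7.69% of such a list by the size of the list alone. These shares can therefore not be read against the 0.594% of all genes. Among genes with H3K27ac at the start, 2.74% had a shared peak.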

How the data were processed

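ChIP-seq was done on 1 library per group, so no test between conditions was possible and no p-value is given. The submitters' processing notes name MACS2, deepTools and the mouse build GRCm38/mm10, while versions, aligner and read filters were not given in the sources used here. All 9 deposited files are peak lists of 10 columns, and per the series' design text each was made by the authors from a precipitated and an input sample. Fold, as deposited, is the ratio at a peak's summit of fragments to local background. The deposited −log10 columns hold each peak's p-value and q-value. A deposited score, which multiplies −log10 q (both histone marks) or −log10 p (EZH2, p53 and SIRT1) by 10, was not used. The lowest −log10 q of the histone lists corresponds to a q of 0.05, while the EZH2, p53 and SIRT1 lists had no such limit, so most of their peaks are weak. Depth is unknown. Fold and p together give the number of fragments under a summit by the caller's Poisson model, and it came out whole (tolerance 0.001 on −log10 p) for at least 99.99% of peaks in each of the 4 lists tested.

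Overlaps were computed in Python 3.11.15 (pandas 2.3.3, numpy 2.4.6, scipy 1.17.1) for chromosomes 1 to 19 and X, and checked on simulated intervals. Coordinates are 1-based. Gene starts came from the RefSeq promoter table (GRCm38.p6) for 26794 of 34328 protein-coding and lncRNA genes, and from both gene ends, without strand, for the other 7534. Neither exons nor a genome were used, so exon and intron were not separated. Wilson 95% intervals cover counting error only, and neighbouring peaks are not independent.

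The regions, gene lists and tests were chosen with earlier results of these data known. Genes were named by a rule among shared peaks at a gene with a formal symbol. At a gene means that the peak reached within 1 kb of its start, or of either end if strand was not given. The rule took the 8 full overlaps with the highest lower fold and up to 4 shared peaks per gene list. It also took the 5 highest by H3K27ac, by H3K27me3, by shared bases, by untreated EZH2, among edge contacts and on X. Others were chosen after their values were seen. Alternatives were a −log10 q of at least 5, joining of H3K27me3 peaks at most 1 kb apart, 500-bp windows, an overlap of 50% of the shorter peak, exclusion of X, other edge limits, q limits on EZH2 and SIRT1, and a window of 5 kb.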

Additional observations from a re-analysis of the deposited data

How the results depend on the processing

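No paired analysis was possible because each group held 1 library. Of 56 alternative values of the main results, 34 stayed within counting error of the reported value or within 1.5 times of the reported count, and 22 did not; the cause was not tested. With a −log10 q of at least 5 in both marks, 255 shared peaks were left, edge contacts were 1.96%, both summits were shared in 44.3%, untreated EZH2 met 4.31%, SIRT1 in Ezh2 wild type 15.3%, 10.6% lay at a gene start, 7.45% on X, and 6.53% of the H3K27ac peaks on X were shared. With H3K27me3 peaks at most 1 kb apart joined, full overlaps were 63.0% and both summits were shared in 23.9%. In 500-bp windows on the H3K27ac summits, full overlaps were 50.2%, edge contacts 7.05%, EZH2 met 1.28% and SIRT1 6.31%, and 21.8% of H3K27ac peaks on X were shared. An overlap of at least 50% of the shorter peak left 22.8% of them. Edge limits of 10 and 50% gave 1.56 and 12.9% edge contacts. A q of at most 0.05 left 0.462% with EZH2 and 0% with SIRT1, a 5-kb window put 28.5% near a gene start, and starts of the promoter table alone, an alternative chosen after seeing the data, gave 5.95%. The shares among regions with both summits shared were also chosen after seeing the data. Untreated EZH2 stayed above, and SIRT1 in Ezh2 wild type and gene starts below, the share of the other H3K27ac peaks in every alternative run for them. For SIRT1 the difference was within counting error without chromosome X, with a −log10 q of at least 5, and in 500-bp windows. It was also within counting error with SIRT1 peaks at a q of at most 0.05. So was the difference in gene starts with the 5-kb window. With SIRT1 peaks at a q of at most 0.05, the shared peaks were not below the others in the Ezh2 knock out list (0.231 against 0.227%). Nor were they in the p53 knock out list (0.173 against 0.124%). No H3K27ac peak overlapped all 8 other lists, so leaving such regions out could change nothing. The values of that alternative are counted among the 34 and are no check. The unknown depth limits all counts, since weak regions enter or leave both histone lists at the q limit.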
